A study of Mus musculus with 2 samples.

Results

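The Iroquois homeobox genes Irx1 to Irx6 were examined in 2 sorted cell populations of the growing mouse hair follicle. On 1 of the 2 arrays, markers of dermal fibroblasts also gave high signals, as given below. The Iroquois genes were chosen by family name, after earlier results of the same arrays were known. Their ratios below are therefore a description and support no test. All 6 genes had a probe set of their own, 1 each, among 18193 genes represented on the array. No further probe set named an Iroquois gene together with another gene.

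The cells came from back skin of CD-1 pups of genotype K14-RFP/Sox9-EGFP at postnatal day 4. Each animal carried a red reporter driven by the keratin 14 promoter, a promoter of basal keratinocytes. A second, green reporter marked the transcription factor Sox9. Early bulge cells, from the region that houses the follicle stem cells, were bright for both colours. Non-bulge cells of the outer root sheath (ORS), the outermost epithelial layer of the follicle, were bright for red and lacked green. Both populations passed through the same enzymatic dissociation and the same removal of dead and large differentiated cells, and no untreated or unsorted sample was analysed here. The number of pups behind each sort is not known here. There was 1 array for each population, so no value has a replicate error and no p-value is given.

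Iroquois proteins are transcription factors of the TALE class, whose homeodomain carries an insertion of extra residues in a loop. They take their name from the fly complex that patterns the body wall, and in mammals they are known for regional patterning of heart, limb, lung, nervous system and other organs. In the mouse genome the genes lie in 2 clusters of 3. IrxA, on chromosome 13, holds Irx1, Irx2 and Irx4, and IrxB, on chromosome 8, holds Irx3, Irx5 and Irx6.

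Promoter sequences of 3 of the 6 genes were in the sequence table used, and they are shown to set Irx3 and Irx4, past 2-fold in the results below, beside Irx2, which was not. Each line gives the 250 bases before the transcription start in RefSeq (GRCm38.p6), on the strand of the gene. Capitals mark GC boxes, the letters GGGCGG or their reverse complement. The Irx3 window is chr8:91801655-91801904 on the minus strand, the Irx4 window chr13:73260247-73260496 on the plus strand and the Irx2 window chr13:72628570-72628819 on the plus strand.
Irx3: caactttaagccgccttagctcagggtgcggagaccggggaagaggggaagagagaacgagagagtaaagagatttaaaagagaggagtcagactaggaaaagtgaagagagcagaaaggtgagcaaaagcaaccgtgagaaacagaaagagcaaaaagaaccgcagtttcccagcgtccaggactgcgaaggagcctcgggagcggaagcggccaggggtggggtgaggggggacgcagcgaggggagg
Irx4: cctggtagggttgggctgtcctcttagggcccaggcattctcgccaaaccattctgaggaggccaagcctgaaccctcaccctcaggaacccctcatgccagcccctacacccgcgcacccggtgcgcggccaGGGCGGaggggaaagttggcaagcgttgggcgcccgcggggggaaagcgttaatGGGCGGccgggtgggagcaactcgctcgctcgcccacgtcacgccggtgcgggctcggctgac
Irx2: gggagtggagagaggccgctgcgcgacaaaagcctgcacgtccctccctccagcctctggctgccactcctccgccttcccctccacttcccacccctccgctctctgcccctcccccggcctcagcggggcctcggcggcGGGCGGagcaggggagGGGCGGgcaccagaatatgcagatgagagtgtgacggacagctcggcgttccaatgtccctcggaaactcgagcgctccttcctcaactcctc

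The Irx3 window held no GC box, 13 CpG dinucleotides and 56% G and C, and 73.6% of its bases were purines. The Irx4 window held 2 GC boxes, 22 CpG dinucleotides and 68.8% G and C. For Irx2 the count was also 2 GC boxes, with 19 CpG dinucleotides and 68.4% G and C. Among 27025 RefSeq genes with a window of this length, 32.9% held a GC box, and the medians were 6 CpG dinucleotides and 52% G and C. None of the 3 windows held the Iroquois recognition letters ACANNTGT on either strand, which 6.29% of all windows held, or a TATA box (TATAAA on either strand), which 13.0% held. No GC box overlapped another motif searched. These matches describe letters only and say nothing of what binds there.

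Values are linear signals made with MAS5, the array maker's algorithm, scaled by the authors so that the 2% trimmed mean was 500.0 on both arrays. Signals below 57.8, the 40th percentile of all signals, were treated as unordered and set to that floor. A gene counted as measured when at least 1 array reached the floor, which left 13252 genes, and a ratio with 1 array at the floor is written as "at least". Sox9, the gene of the green reporter, was 6.01-fold higher in early bulge (4061 against 676), in the direction of the labels, with its other probe sets at log2 ratios of 1.07 and at least 0.30. All 8 basal keratinocyte markers were measured and brighter in early bulge, 4 of them at least 2-fold, among them the hemidesmosome collagen Col17a1 (5.20-fold), Krt14 (2.23-fold) and the integrin Itga6 (2.10-fold). On the ORS array their signals stayed high, for example 14212 for Krt5 and 12955 for Trp63. Because RNA of whole populations was measured, fewer cells of a type and less RNA per cell cannot be told apart.

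Every Iroquois gene was brighter in early bulge, as were 7030 of the 13252 measured genes. For Irx6 the ORS signal was below the floor. It thus counted as measured through the early bulge array alone, and its ratio could only be above 0. In the counts and the median below it enters at its bound. Early bulge signals were 2-fold or more above ORS for 3 of 6: Irx3, Irx5 and Irx4. Of all measured genes, 7.3% were 2-fold or more above ORS. At 4-fold, 2 of the 6, Irx3 and Irx5, passed, against 1.87% of all genes. None of the 6 had an ORS signal 2-fold or more above early bulge, as 4.78% of all genes did. The median log2 ratio of the 6 was 1.25, and that of all measured genes 0.04. Because the genes were chosen with these ratios known, nothing is read from the difference between these shares.

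**Figure D1:**
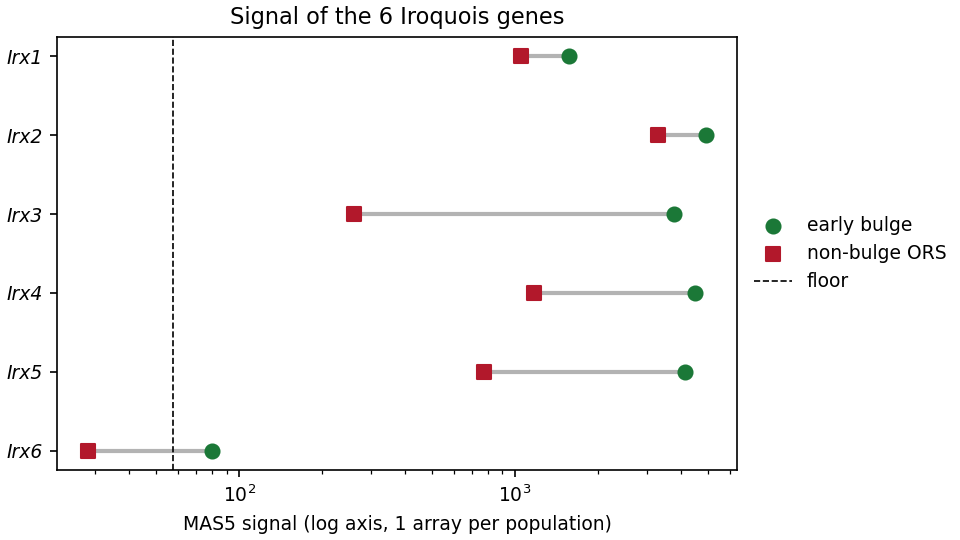
MAS5 signal (x, log axis) of each Iroquois gene (y) on the early bulge array (circles) and the non-bulge ORS array (squares), with the floor as a dashed line. The early bulge circle lies to the right for all 6 genes, and the gap is widest for Irx3, from 260.8 to 3770.

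In the IrxB cluster, Irx3 had the largest ratio of the family. Irx3 helps to set up fast conduction in the heart and takes part in neural tube patterning. Its signal was 3770 in early bulge and 260.8 in ORS, a 14.5-fold difference or 3.85 on the log2 scale. A larger ratio towards early bulge was seen for 31 of the 13252 measured genes (0.234%). In this count and those for the other members, a gene with 1 array at the floor enters at its bound. The counts are therefore minima. The ORS signal of Irx3 was itself above the floor, so its ratio is a measured value and not a bound.

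Irx5, which shapes the repolarisation gradient of the heart wall, followed. The early bulge array gave 4125 and the ORS array 771.8, which is 5.35-fold, or 2.42 on the log2 scale. A larger ratio was seen for 158 genes (1.19%). Both arrays were far above the floor for this gene.

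Irx6, the last gene of IrxB and known from bipolar cells of the retina, was dim. It gave 79.4 on the early bulge array, and its 28.3 on the ORS array was below the floor and next to the brightest negative control, 28.1. Its ratio was therefore at least 1.37-fold. The gene was thus barely above the floor on the early bulge array, and the size of any difference was not measurable here. Its log2 ratio without a floor was 1.49.

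In the IrxA cluster, Irx4, best known as a gene of the heart ventricles, was the member that differed by over 2-fold. It gave 4473 in early bulge and 1175 in ORS, a ratio of 3.81-fold or 1.93 on the log2 scale. Of all measured genes, 268 (2.02%) had a larger ratio.

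Irx1 and Irx2, which are known from developing lung and limb, were less than 2-fold apart. Irx1 gave 1563 in early bulge and 1047 in ORS. Irx2 gave 4934 and 3305. Both ratios were 1.49-fold, or 0.58 on the log2 scale, and 2306 and 2310 genes (17.4% in each case) had larger ones. The cluster mates of Irx4 thus had clear signal in both populations, with a smaller difference.

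No Iroquois gene had another probe set against which its ratio could be checked, so the spread between probe sets of other genes is the nearest measure of technical error. Over 10881 pairs, the log2 ratios of 2 probe sets of a gene differed with an SD of 0.56. The ratios of Irx3, Irx5 and Irx4 were larger than this spread, and those of Irx1 and Irx2 were about its size. Among 127 genes 3.5-fold or more above ORS that had another measured probe set, every other probe set kept the direction in all 127. In 68.5% of them every other probe set was also at least 2-fold higher. Among 982 genes between 1.3-fold and 2-fold higher, all other probe sets kept the direction in 79.4%. In both groups, a probe set that reached the floor in early bulge alone could only keep the direction. Probe sets below the floor on both arrays were left out. This spread covers probe differences only and leaves out animals, sorts and arrays.

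Genes that flank the clusters were compared next: the 5 protein-coding RefSeq genes on either side of each cluster, of which 16 of 20 had a probe set of their own, all measured. No other protein-coding gene lies between the members. Of the 16, 3 were 2-fold or more above ORS, against 7.3% of all measured genes. None went as far the other way, against 4.78% of all measured genes, and the median log2 ratio of the 16 was 0.11. All 3 lay together beyond the Irx6 end of IrxB. Capns2, a small calpain subunit, gave 7503 in early bulge and 202.1 in ORS (37.1-fold). Slc6a2, the noradrenaline transporter, gave 2984 and 183.5 (16.3-fold), although its other probe sets, at most 175.2 in signal, gave log2 ratios of 0.53, at least 0.20 and at least 1.56, these last with ORS below the floor. Lpcat2, a lysophospholipid acyltransferase, gave 610.5 and 149.1 (4.10-fold), and its other probe set had a log2 ratio of 1.93. The gelatinase gene Mmp2, between Irx6 and these 3 genes, differed little (2039 and 1737, log2 ratio 0.23).

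On the Irx3 side of IrxB the ratios were small. Fto, the RNA demethylase gene next to Irx3, gave 1450 and 1407, a log2 ratio of 0.04. Aktip, Rbl2 and Chd9, further out, had log2 ratios of -0.29, 0.17 and 0.25. Around IrxA none of the 8 measured neighbours passed 2-fold in the main setting. The 6 above the floor on both arrays ran from -0.71 for Lpcat1, which had another probe set at -1.20, to 0.25 for Adamts16. Slc6a3 was below the floor in ORS (84.7 against 11.0), with a log2 ratio of at least 0.55, and Ube2ql1 was below it in early bulge (42.7 against 65.0). Between Irx5 and Lpcat2, both past 2-fold, lay Irx6, whose ratio is a lower bound, and Mmp2 with its small ratio.

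**Figure D2:**
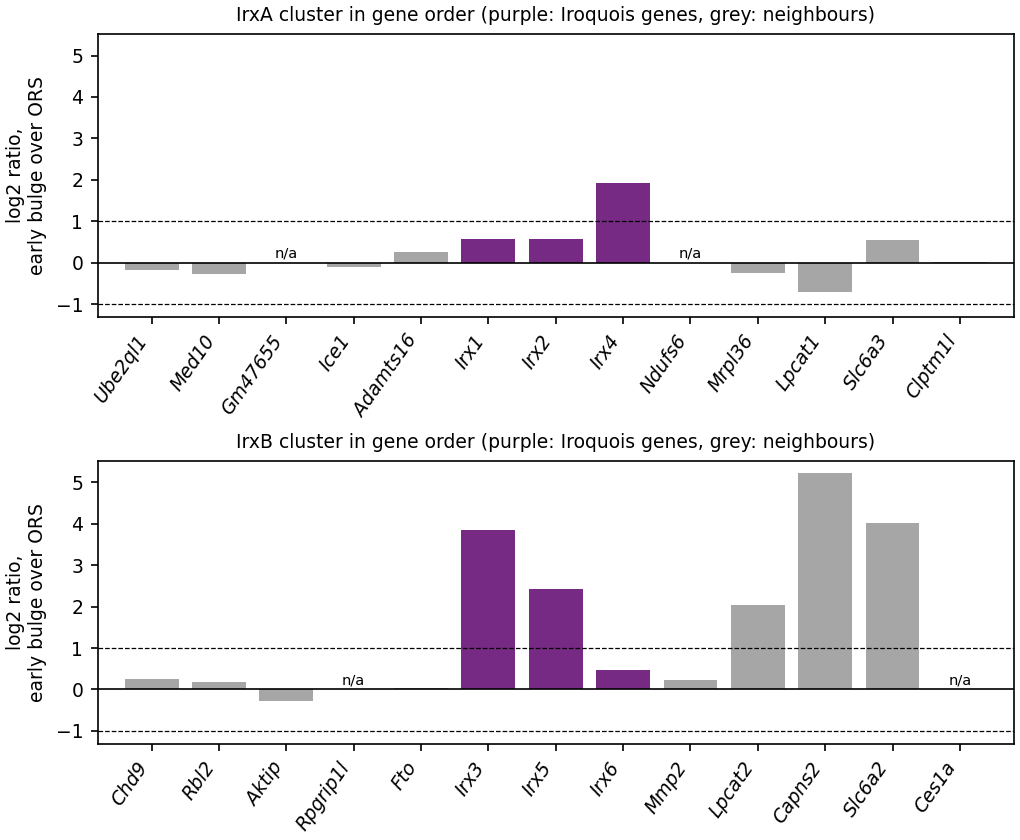
log2 ratio of early bulge over non-bulge ORS signal (y) for the genes of each Iroquois cluster (purple bars) and 5 protein-coding neighbours on either side (grey bars), in gene order along the chromosome; dashed lines mark 2-fold, bars of Irx6, Slc6a3 and Ube2ql1 are bounds, and n/a marks a gene with no probe set of its own. In IrxB, Irx3, Irx5, Lpcat2, Capns2 and Slc6a2 stand above 2-fold while Fto and Mmp2 lie near 0; in IrxA only Irx4 does.

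Set among 62 other measured homeobox genes of the Hox, Dlx, Msx, Lhx and further families, no gene had a larger ratio towards early bulge than Irx3. Barx2, a homeobox gene of epithelia, had a larger ratio than Irx5 (5.41-fold, 352.1 against 65.1), by less than the spread between probe sets, and Barx2 and the TALE gene Pbx3 had larger ones than Irx4. Of the 62 genes 5 (8.06%) were 2-fold or more above ORS and 11 (17.7%) 2-fold or more above early bulge. The median log2 ratio of the 62 was 0.12. The genes higher in ORS included the hair matrix regulators Dlx3 and Msx2, at -3.53 and -3.36. Irx1 and Irx2 lay among the many homeobox genes less than 2-fold apart, and Irx6, with a lower bound alone, has no place in this order.

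**Figure D3:**
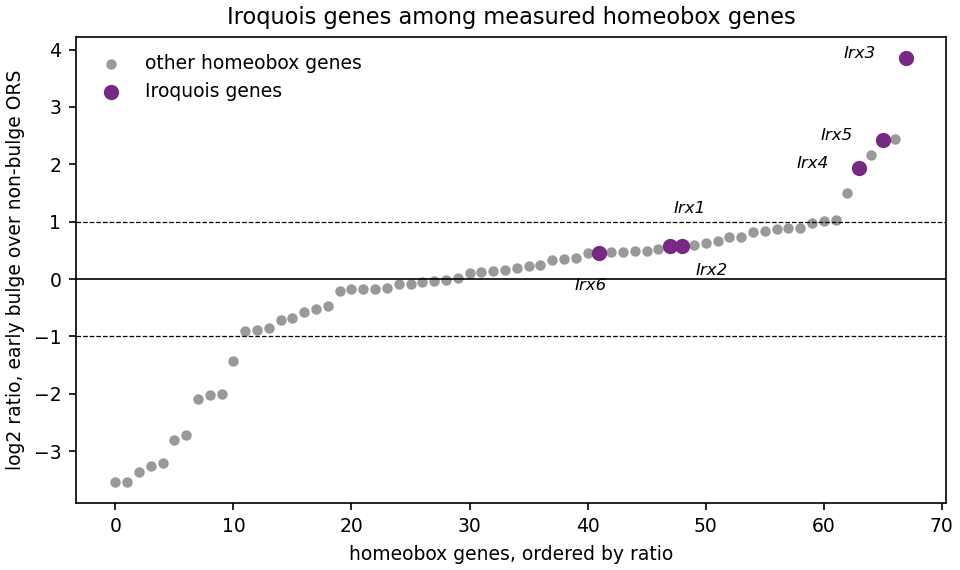
log2 ratio of early bulge over non-bulge ORS signal (y) for the 6 Iroquois genes (purple) and 62 other measured homeobox genes (grey), ordered by ratio (x); dashed lines mark 2-fold. Irx3 is at the top with 3.85, Irx5 and Irx4 stand among the next few genes with 2.42 and 1.93, and Irx1 and Irx2 lie at 0.58. Irx6 and some other genes are drawn at a bound, for Irx6 at least 0.46.

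By closeness of both log2 signals (Euclidean distance over the 2 arrays with the floor applied, among the same 62 genes), Pbx3 was nearest to Irx5 (0.61) and to Irx3 (1.34). The next nearest were Hoxa9 and Hoxc8 for Irx5 (1.34 and 1.45) and Satb1 and Hoxa9 for Irx3 (2.08 and 2.14), whose ratios were much smaller. For Irx4 the nearest were Hoxc8 (0.94), Pbx3 (1.11) and Lhx2 (1.40). Irx1 was nearest to Hoxa9, Hoxa5 and Tgif2 (0.24, 0.65 and 0.88) and Irx2 to Pou3f1, Hoxc8 and Lhx2 (0.80, 0.97 and 1.05). Pitx1, Hoxb9 and Pou3f3, all below the floor on the ORS array, were nearest to the dim Irx6 (0.06, 0.11 and 0.13). Signals of different probe sets are not amounts of RNA, so these distances only describe the arrays.

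The other TALE genes, which include the Pbx and Meis cofactors of Hox proteins and the Tgif repressors, mostly differed little. Of 11 with a probe set of their own, 9 were measured, and Pbx3 alone was at least 2-fold apart, against 12.1% of all genes. Pbx3 gave 2843 in early bulge and 633 in ORS (4.49-fold), and its other probe set had a log2 ratio of 2.12 against 2.17. Meis2 was lower on the early bulge array, 115.8 against 217.3, a log2 ratio of -0.91. The log2 ratio of Meis1 was 0.01, that of Pbx2 0.15, of Tgif1 0.37, of Tgif2 -0.05 and of Pknox1 -0.17. Other probe sets gave 0.61 and 0.15 for Meis1 and 0.78 and 0.13 for Pbx2. Those of Pknox1 gave -0.56 and, with early bulge below the floor, a bound of -0.38. Pknox2 and Meis3 had lower bounds of 0.89 and 0.15. Pbx4 and Mkx stayed below the floor on both arrays. The median of the 9 was 0.15.

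Reported partners and targets of Iroquois proteins were also looked up. The zinc finger factors Gata3, a regulator of the inner root sheath, and Trps1, a gene required for normal hair, have been described as partners of Irx5. Gata3 gave 1736 in early bulge and 2610 in ORS (log2 ratio -0.59), and Trps1 751 and 809.2 (-0.11). Other probe sets of Trps1 ran from -0.44 to 0.31. The chemokine gene Cxcl12, described as repressed by Irx5, gave 691.4 and 2832 and was 4.10-fold higher on the ORS array, with another probe set at -0.82. A dim one was below the floor in early bulge (26.7 against 77.8). Gja1, a gap junction gene, gave 20156 and 21391 (-0.09), and its other probe sets ran from -0.78 to 0.27. Bmp10, Gja5 and Kcnd2, known as heart targets, were below the floor on both arrays. Of the 4 measured genes, 1 was at least 2-fold apart, against 12.1% of all measured genes, and the median log2 ratio of the 4 was -0.35.

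Markers of other cell types moved between the arrays as well. Of 10 dermal fibroblast markers 9 had ORS signals 2-fold or more above early bulge, and the list summed to 53676 in ORS and 5818 in early bulge. Lum and Dpt were 29.9-fold and 22.5-fold higher in ORS and Col1a2 13.4-fold, whereas Fbln2 was 2.78-fold higher in early bulge. Cxcl12, which fibroblasts also make, was likewise higher on the ORS array, and the part of fibroblasts in its ratio was not tested. Among 7 markers of pericytes and smooth muscle, 4 were 2-fold or more above early bulge, Tagln (34.1-fold), Acta2 (8.58-fold) and Pdgfrb (7.05-fold) the most. Of the other 3, Cspg4 was brighter in ORS (log2 ratio -0.44), and Des (at least 0.71) and Mcam (0.18) in early bulge. The 7 markers summed to 18766 on the ORS array and 3999 on the early bulge array. Of 9 dermal papilla markers 8 were measured, 3 of them 2-fold or more above early bulge: Prom1 (3.47-fold), Vcan (3.16-fold) and Corin (a bound of 2.92-fold). Of the other 5, Rspo3 and Fgf7 were brighter in ORS, and Hhip (log2 ratio 0.32), Alpl (at least 0.62) and Fgf10 (at least 0.42) in early bulge. The list summed to 3776 in ORS, of which Vcan made up 2729, and to 1448 in early bulge. Sox2, a further papilla marker, was below the floor on both arrays.

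On the epithelial side, 4 of 6 measured markers of differentiated keratinocytes were 2-fold or more above ORS, as Irx3, Irx5 and Irx4 were. They included Krtdap (11.1-fold), Sbsn (7.54-fold) and Krt10 (3.04-fold), and the list summed to 20655 in early bulge and 4907 in ORS. Ivl was less than 2-fold higher in early bulge (log2 ratio 0.46). Lor was brighter in ORS (-0.34, with another probe set at -0.46), and Flg was below the floor on both arrays. Of 8 hair matrix and inner root sheath markers, 4 were 2-fold or more above early bulge, Krt28 (log2 ratio -3.58), Msx2 (10.3-fold) and Lef1 (6.11-fold) the most. Of the other 4, Gata3 (-0.59), Hoxc13 (-0.58) and Tchh (-0.05) were brighter in ORS and Krt35 (0.35) in early bulge. The list summed to 19985 in ORS and 7635 in early bulge. Melanocyte markers had 1 of 8 at least 2-fold apart, Kit (7.08-fold higher on the ORS array), with sums of 2958 in early bulge and 3438 in ORS. Kit made up 860.0 of the ORS sum. Of the 8 markers, 5 were brighter in early bulge, with log2 ratios up to 0.78 for Tyrp1, and 3 in ORS. Of 6 immune markers 3 were measured and none passed 2-fold (sums of 404.2 in early bulge and 348.5 in ORS), and Ptprc, Cd3e and Cd207 were below the floor on both arrays. Of 5 endothelial markers, Pecam1, Cdh5 and Emcn were below the floor on both arrays and Tek was 4.09-fold higher on the ORS array (sums of 131.2 in early bulge and 430.9 in ORS). The part of these cell types in the Iroquois ratios was not tested.

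Scaling of the arrays against each other did not change which Iroquois genes were at least 2-fold apart. Centring the medians moved the median log2 ratio of all measured genes from 0.04 to -0.17 and the share of 2-fold genes that favoured early bulge from 60.4% to 41.0%. Relative to that, Irx3, Irx5 and Irx4 still had log2 ratios of 3.64, 2.20 and 1.71, and Irx1 and Irx2 both had 0.36. Across the settings tried, Irx3 ran from 3.62 to 3.90, Irx5 from 2.20 to 2.49 and Irx4 from 1.71 to 2.01. Irx6 depended on the floor, with 0.30 to 1.49.

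**Figure D4:**
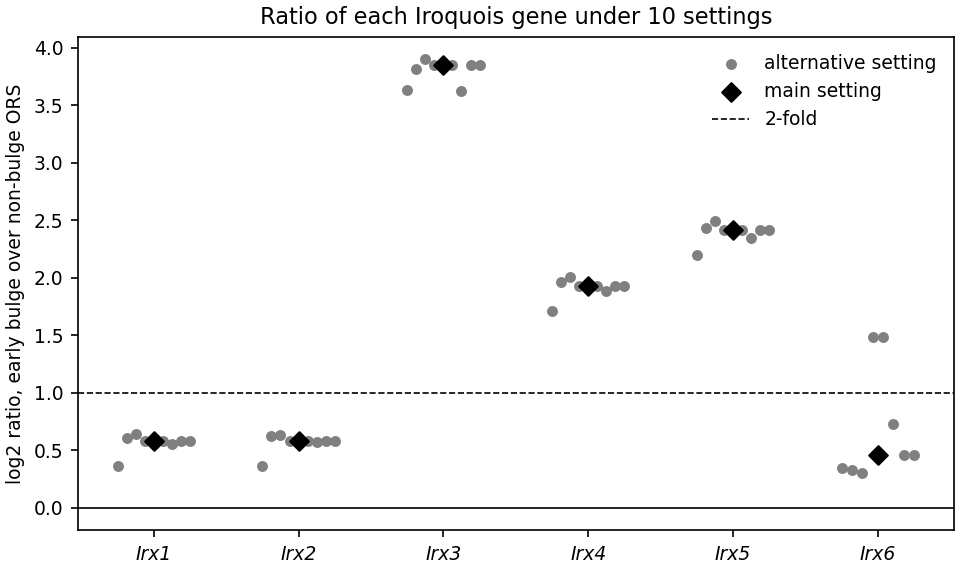
log2 ratio of early bulge over non-bulge ORS signal (y) of each Iroquois gene (x) in the main setting (diamonds) and under the alternative settings (circles); the dashed line marks 2-fold. Every value is above 0, which was fixed in advance for Irx6 where its ORS signal was below the floor. Irx3, Irx5 and Irx4 stay above 2-fold and Irx1 and Irx2 below it. Irx6 crosses it in 2 settings with a lower or no floor.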

How the data were processed

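Total RNA of 2 sorted populations was hybridised as biotinylated cRNA to 1 Affymetrix array each, per the labels' protocols. The authors deposited 1 signal intensity for each probe set, on a linear scale. Per the submitters' processing notes, these came from MAS5 in Affymetrix Expression Console. No version is named there, and the build was not given in the sources used here. Low MAS5 values are noisy, and neither detection calls nor probe-level data entered the analysis.

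Gene names came from the platform annotation, looked up by Entrez ID in RefSeq genes (GRCm38.p6): 34754 of 34958 probe sets with a single symbol matched and no symbol changed. The 932 probe sets with several symbols, 9160 with none and 64 controls were left out. A gene was represented by its probe set of highest mean log2 signal, and 1718 of 13252 measured genes had 1 array at the floor. With 1 array a group no test was possible, and genes were counted by size. Their number limits the precision of every value. The members and all lists were chosen with earlier results of these data known. Text names all members, all measured TALE, partner and target genes, the 3 nearest homeobox genes of each member, neighbours at least 2-fold apart and up to 3 markers a list with the largest ratios. Other genes (Krt5, Trp63, Fbln2, Mmp2, Adamts16, Ube2ql1, Fto, Aktip, Rbl2, Chd9, Lpcat1, Slc6a3, Barx2, Dlx3, Msx2, the lesser papilla markers, markers below the floor) were named after their values were seen. So were the lesser markers of pericytes, differentiated keratinocytes and hair matrix. Alternatives were median centring, quantile and loess (span 0.4) scaling, floors at the 20th and 60th percentile, none, a pseudocount of 50, the mean over probe sets, and probe sets without a suffix. The counting was tested on simulated arrays with large known changes put into bright genes only. That test did not cover dim genes such as Irx6. Python 3.11.15, pandas 2.3.3 and statsmodels 0.14.6 were used.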

Additional observations from a re-analysis of the deposited data

How the results depend on the processing

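Under all 9 alternatives no measured Iroquois ratio changed direction. The count of members 2-fold or more above ORS was 3. It was 4 with a floor at the 20th percentile or none, where Irx6 had a log2 ratio of 1.49. With a floor at the 60th percentile Irx6 was not measured. In settings where its ORS signal was below the floor, its ratio could only be above 0. No member was 2-fold lower in any of them. Counts over all genes moved more. In the main setting 968 genes were 2-fold or more above ORS, against 1870 with a 20th percentile floor, 616 with a 60th percentile floor and 2731 with none. In the other direction there were 634 in the main setting, 1018 after median centring, 984 with a 20th percentile floor and 1601 with none. Other TALE genes at least 2-fold apart were 1 in the main setting and 2 after median centring, quantile or loess scaling, where Meis2 joined Pbx3. There were 3 with a 20th percentile floor, 4 with none, and 0 without suffixed probe sets, a setting that leaves no probe set of Pbx3. Partners and targets at least 2-fold apart were 1, and 2 without a floor. Chromosomal neighbours at least 2-fold apart were 3 in the main setting. They were 4 with a 20th percentile floor, no floor or a pseudocount, where Slc6a3 beside IrxA joined. No paired analysis was possible because each group has 1 array. The spread between animals and sorts is unknown, and dim genes such as Irx6 have no measurable ratio.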

Other observations

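Because the genes beyond Irx6 had high ratios, the next 10 protein-coding genes on either side of each cluster were looked up as well, a choice made after seeing the data. Beyond Chd9, on the Irx3 side of IrxB, Tox3, a gene for a high mobility group box protein, gave 678.6 on the early bulge array and was below the floor on the ORS array (44.4), a log2 ratio of at least 3.55. None of the other 7 measured genes there passed 2-fold, among them Cyld (0.41), Brd7 (-0.14) and Snx20, which was below the floor in ORS (at least 0.25). Beyond Slc6a2, the carboxylesterase genes Ces1c to Ces1g were below the floor on both arrays, and Ces1h and Ces5a had log2 ratios of 0.18 and -0.77. Around IrxA, 16 of the 20 further genes were measured. Tppp was past 2-fold towards early bulge (1.24) and Fastkd3 towards ORS (-1.002).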
